A study of Mus musculus with 6 samples.

Results

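The 10 genes described here carry the tumor necrosis factor (TNF) and interleukin-1 (IL-1) signals of early liver regeneration. They are the ligand genes Tnf, Il1a, Il1b and Il18, the antagonist gene Il1rn, the receptor genes Tnfrsf1a, Tnfrsf1b and Il1r1, and the adhesion genes Icam1 and Vcam1. They were chosen by name, with earlier results of these data known. All 10 were among the 17097 genes with a probe set annotated to a single gene. Where a gene had several probe sets, the one brightest on average over the 6 arrays was read. The samples were remnant livers of C57Bl/6 mice taken 12 h after 70% partial hepatectomy, the surgical removal of most of the liver. The knockout animals were 3 DeltaKlf6 mice, in which Klf6, a zinc-finger transcription factor, was deleted in hepatocytes alone. The controls were 3 wildtype mice that had the same operation. Each array held total RNA of 1 animal, and the whole study had 6 animals a group. Neither age, sex nor the Cre driver is stated in the sources used here. The tissue was whole liver, so the arrays also measured Kupffer, endothelial, stellate and blood cells, in which Klf6 was not targeted.

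After a liver resection, Kupffer cells, the resident macrophages of the liver, release TNF, and TNF acts through its receptor on hepatocytes and on neighbouring cells to activate the transcription factor NF-kB. This step, together with interleukin-6, is known as priming, because it prepares resting hepatocytes to respond to growth factors. IL-1 signals through its own receptor to the same transcription factor and is known for restraining hepatocyte DNA synthesis, and the adhesion molecules ICAM-1 and VCAM-1 are textbook NF-kB targets on sinusoidal endothelium.

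The promoters of the 4 ligand genes are shown because the ligands differed in direction, Il18 and Il1a being higher by group mean and Tnf and Il1b lower. None of these differences passed the test given below, and no link between promoter letters and direction was tested. Each line gives the 250 bases before the transcription start from RefSeq on GRCm38.p6, written 5′ to 3′ on the strand of the gene, with matches to any of 4 searched motifs in capitals.
Tnf, chr17:35202008-35202257 (- strand): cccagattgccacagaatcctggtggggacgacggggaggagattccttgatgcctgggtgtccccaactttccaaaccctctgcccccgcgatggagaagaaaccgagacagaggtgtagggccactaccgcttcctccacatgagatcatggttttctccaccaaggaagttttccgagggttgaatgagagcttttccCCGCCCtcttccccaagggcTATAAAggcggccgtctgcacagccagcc
Il1a, chr2:129309973-129310222 (- strand): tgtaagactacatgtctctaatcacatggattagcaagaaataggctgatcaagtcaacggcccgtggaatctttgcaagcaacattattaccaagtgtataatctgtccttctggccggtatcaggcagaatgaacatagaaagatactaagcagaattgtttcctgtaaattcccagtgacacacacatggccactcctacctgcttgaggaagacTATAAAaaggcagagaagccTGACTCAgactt
Il1b, chr2:129371140-129371389 (- strand): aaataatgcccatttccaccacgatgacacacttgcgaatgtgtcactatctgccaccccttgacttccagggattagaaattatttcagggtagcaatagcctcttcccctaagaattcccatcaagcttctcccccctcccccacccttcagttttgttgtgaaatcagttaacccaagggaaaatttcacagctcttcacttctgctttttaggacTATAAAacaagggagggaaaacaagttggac
Il18, chr9:50554450-50554699 (+ strand): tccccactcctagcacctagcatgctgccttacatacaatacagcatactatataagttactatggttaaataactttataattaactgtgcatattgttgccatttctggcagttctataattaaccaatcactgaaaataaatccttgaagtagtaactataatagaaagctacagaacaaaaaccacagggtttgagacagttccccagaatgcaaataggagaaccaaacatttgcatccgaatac
The motifs were the TATA box TATAAA on the strand of the gene, and on both strands the GC box GGGCGG, the AP-1 site TGANTCA and the NF-kB consensus. A TATA box began 29 bases before the start in Tnf, 32 in Il1a and 31 in Il1b, and 7.55% of 32526 distinct mouse promoters of this length held one. The Tnf promoter also held a GC box 49 bases before the start (33.0% of promoters), and the Il1a promoter an AP-1 site 12 bases before it (6.73%). None of the 4 motifs was found in these letters upstream of Il18. RefSeq promoters were at hand for 9 of the 10 genes, 12 promoters in all, and Vcam1 had none here. Among those not shown, the Tnfrsf1b, Icam1 and second Il1r1 promoters held a GC box, 1 Il1rn promoter held an AP-1 site, and the second Il1r1 promoter held the single NF-kB match, 232 bases before the start (7.28% of promoters). A match describes letters and not a bound site, and the absence of a match in this window says nothing about a factor.

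2 features of the libraries are given before any comparison. Klf6 itself was high in the library labelled DeltaKlf6 1, by 2.13, 1.82 and 2.12 log2 units over the wildtype mean on its 3 probe sets. The same probe sets stood at -0.87, 0.05 and -0.30 relative to the wildtype mean in DeltaKlf6 2, and at -0.86, -0.32 and -1.75 in DeltaKlf6 3. It is not known here whether any of these probe sets covers the deleted sequence, so DeltaKlf6 1, 2 and 3 below stand for the libraries so labelled, and every direction is between libraries as labelled. The second feature is the library labelled DeltaKlf6 3, whose upper quartile was 5.08 against 5.50 to 5.63 on the other 5 arrays, and whose hybridization and Gapdh controls lay above every wildtype array. For Gapdh the 3′ minus 5′ signal of DeltaKlf6 1 and 2 was 3.47 and 3.45, under the wildtype values of 4.06 to 4.43. The actin probe sets differed by 4.22 in DeltaKlf6 1, 3.998 in DeltaKlf6 2 and 5.05 in DeltaKlf6 3, the last of which lay inside the wildtype range of 4.86 to 5.39. Arrays correlated across genes at 0.946 to 0.9638 within DeltaKlf6 and at 0.982 to 0.983 within wildtype. Pairs of a DeltaKlf6 and a wildtype array correlated at 0.9642 to 0.981, so each was closer than any pair within DeltaKlf6. The 8 hepatocyte markers averaged 11.6 to 12.1 in DeltaKlf6 and 11.7 in each wildtype array, far above the array medians of 3.30 to 3.45. The part of these features in the results below was not tested.

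None of the 10 genes passed the test between DeltaKlf6 and wildtype. Il18 was the 1 gene whose groups did not overlap, 1.60-fold higher in DeltaKlf6. Vcam1 was 1.96-fold higher by mean but low in 1 of the 3 DeltaKlf6 libraries. Tnf and Il1b were lower by mean. DeltaKlf6 libraries lay both above and below the wildtype range for Tnfrsf1b and Il1r1, as also for Tnf, Il1a, Il1rn, Icam1 and Vcam1. On the lower side the range was passed by 0.005 for Il1a and 0.002 for Vcam1. By limma with Benjamini-Hochberg adjustment over 17097 genes, 0 of the 10 passed an adjusted p of 0.05 on the higher side and 0 on the lower side, as did 0% of all genes on each side, and the members' adjusted p ranged between 0.992 and 0.997. At an unadjusted p under 0.05, 2 were higher, Il18 and Vcam1, against 1.21% of all genes, and 0 were lower, against 2.48%. Groups did not overlap for 1 gene on the higher side, against 3.41% of all genes, and for 0 on the lower side, against 5.91%. With 3 animals a group an exact permutation test cannot give a p below 0.1. In whole tissue, fewer cells of a type and less RNA per cell cannot be told apart.

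**Figure D1:**
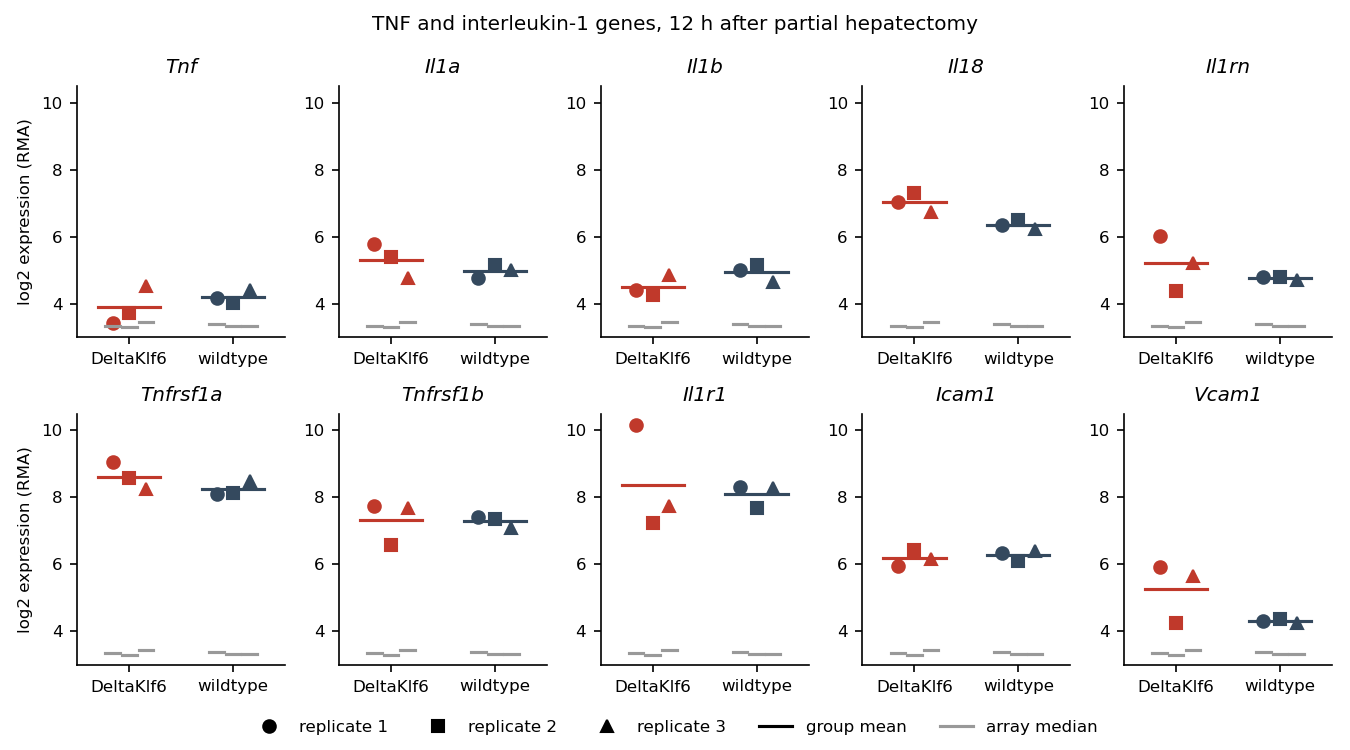
The 10 genes on the 6 arrays, with log2 expression (RMA) on the vertical axis and the 3 DeltaKlf6 livers left of the 3 wildtype livers in each panel. Points are single livers, coloured lines are group means and grey dashes are array medians, which lay between 3.30 and 3.45. The groups are apart for Il18 alone, and the library labelled DeltaKlf6 1 stands at 10.17 for Il1r1.

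Among the ligands, Tnf encodes the cytokine that opens priming. Its log2 level was 3.43, 3.72 and 4.54 in DeltaKlf6 1, 2 and 3, against 4.17, 4.03 and 4.40 in wildtype 1, 2 and 3. The DeltaKlf6 libraries held both the lowest and the highest values, so the groups overlapped. The group means were 3.90 ± 0.57 in DeltaKlf6 and 4.20 ± 0.19 in wildtype (SD, n = 3 each), a log2 difference of -0.31 (SE 0.31, 95% confidence interval -1.02 to 0.41, limma adjusted p = 0.992). Its probe set was dim. It lay 0.09 to 1.09 above the array median, and it exceeded the highest of 23 nonspecific control probe sets on 4 of 6 arrays. That control was at 4.44, 4.17 and 4.23 in DeltaKlf6 and at 3.69 to 3.89 in wildtype. The second highest control was at 2.79 to 3.01, and Tnf exceeded it on all 6 arrays. At such a dim level a difference may be understated. Without the library labelled DeltaKlf6 3, the one in which Tnf was high, the difference was -0.63 (limma unadjusted p = 0.0267, adjusted p = 0.500). Without DeltaKlf6 1 it was -0.07 (unadjusted p = 0.816 by limma), and with all arrays the unadjusted p was 0.354 by limma. Leaving out the library highest for Tnf must lower the DeltaKlf6 mean, so the smaller p adds no support.

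Il1b and Il1a encode the 2 classical IL-1 cytokines, IL-1β being made mainly by macrophages and IL-1α also held inside damaged cells and released from them. Il1b was at 4.41, 4.27 and 4.85 in DeltaKlf6, against 5.01, 5.16 and 4.65 in wildtype. DeltaKlf6 1 and 2 lay below every wildtype liver and DeltaKlf6 3 lay inside the wildtype range. The means were 4.51 ± 0.30 in DeltaKlf6 and 4.94 ± 0.26 in wildtype (SD, n = 3 each), and the difference of -0.43 (SE 0.25, interval -1.01 to 0.15) did not pass (limma adjusted p = 0.992). Il1a was at 5.77, 5.40 and 4.775 in DeltaKlf6, against 4.780, 5.16 and 5.01 in wildtype. Here DeltaKlf6 1 and 2 lay above the wildtype livers, and DeltaKlf6 3 lay below them by 0.005. The Il1a difference was 0.33 (SE 0.29, interval -0.34 to 1.002), with means of 5.32 ± 0.50 in DeltaKlf6 and 4.98 ± 0.19 in wildtype (SD, n = 3 each). Il1a and Il1b therefore had opposite signs by mean and in both DeltaKlf6 1 and 2, a contrast that was not tested. Without DeltaKlf6 3 the differences were 0.60 for Il1a and -0.60 for Il1b, with limma adjusted p of 0.522 and 0.529. Without DeltaKlf6 1 they were 0.11 and -0.38.

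Il18 encodes interleukin-18, an IL-1 family cytokine that is made as a precursor, is cut by caspase-1 and induces interferon gamma in lymphocytes. It was at 7.05, 7.32 and 6.72 in DeltaKlf6 1, 2 and 3, against 6.34, 6.50 and 6.22 in wildtype. Every DeltaKlf6 liver lay above every wildtype liver, by 0.23 in the closest case. The means were 7.03 ± 0.30 in DeltaKlf6 and 6.35 ± 0.14 in wildtype (SD, n = 3 each), a difference of 0.68 (SE 0.23, interval 0.14 to 1.21, limma unadjusted p = 0.0190, adjusted p = 0.992). The exact two-sided permutation p was 0.1, the smallest this design allows. With each library left out in turn the difference was 0.53 to 0.83, and without DeltaKlf6 1, the library with high Klf6, it was 0.67. Il18 lay 2.88 to 4.02 above the array median, well clear of the nonspecific controls on all 6 arrays. Casp1, encoding the protease that activates IL-18, was at 3.14, 4.49 and 4.58 in DeltaKlf6, against 3.20, 4.39 and 3.68 in wildtype (0.31, SE 0.45). The receptor genes Il18r1 (0.06, SE 0.32) and Il18rap (0.12, SE 0.26) and the decoy gene Il18bp (0.14, SE 0.25) had smaller differences than Il18, each within its own error. Il18r1 and Il18rap lay below the array median on every array but DeltaKlf6 3, a level at which differences may be understated.

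Markers of macrophages, a main source of IL-18 in liver, are given beside this result. Of the 14 Kupffer cell and macrophage markers 10 were higher and 4 lower by mean, with 0 past the threshold, and their mean level was 7.28 to 7.95 in DeltaKlf6 against 7.19 to 7.54 in wildtype. None of the 14 lay below the array median on all arrays. The groups did not overlap for Mpeg1, a macrophage pore-forming protein (0.58, SE 0.25), and for the scavenger receptor Cd163, which was on the lower side (-1.17, SE 0.23). They did not overlap for 3.41% of all genes on the higher side and 5.91% on the lower. Of the 8 hepatocyte markers 4 were higher and 4 lower. The part of either marker list in the Il18 values was not tested.

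**Figure D2:**
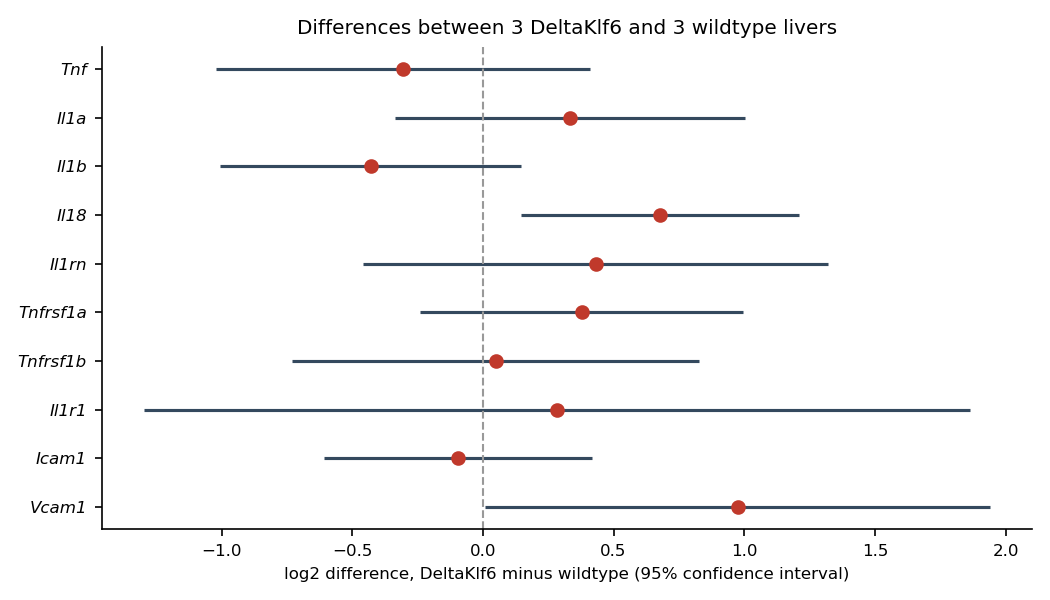
Log2 differences, DeltaKlf6 minus wildtype, for the 10 genes, as points with 95% confidence intervals from limma over 3 livers a group. The intervals of Il18 (0.14 to 1.21) and Vcam1 (0.009 to 1.94) lie above 0 before adjustment over genes, and the other 8 span 0.

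Il1rn encodes the IL-1 receptor antagonist, which occupies the IL-1 receptor without signalling. On the probe set used it was at 6.01, 4.38 and 5.22 in DeltaKlf6, against 4.79, 4.80 and 4.72 in wildtype. The wildtype livers lay close together, and the DeltaKlf6 livers lay on both sides of them. The means were 5.20 ± 0.82 in DeltaKlf6 and 4.77 ± 0.04 in wildtype (SD, n = 3 each), with a difference of 0.43 (SE 0.39, interval -0.46 to 1.32, limma adjusted p = 0.992). A second probe set, 1451798_PM_at, which the platform annotation ties to the same source sequence, gave 6.01, 4.17 and 3.99 in DeltaKlf6 and 4.82, 4.38 and 4.69 in wildtype. Both thus placed DeltaKlf6 1 above and DeltaKlf6 2 below every wildtype liver, but they placed DeltaKlf6 3 on opposite sides of wildtype. The third, 1423017_PM_a_at, of the type shared between transcripts, gave 3.54, 3.93 and 3.29 in DeltaKlf6 and 3.63, 3.44 and 3.35 in wildtype. Differences on these 2 probe sets were 0.09 (SE 0.51) and 0.12 (SE 0.23). Of the Il1rn values, then, the high level in DeltaKlf6 1 was seen on 2 of 3 probe sets, and the position of DeltaKlf6 3 depended on the probe set. Without DeltaKlf6 1 the difference on the probe set used was 0.03, and without DeltaKlf6 2 it was 0.84.

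Of the receptors, Tnfrsf1a encodes TNF receptor 1, which carries the priming signal in liver. It was at 9.05, 8.58 and 8.24 in DeltaKlf6, against 8.10, 8.13 and 8.50 in wildtype. DeltaKlf6 1 and 2 lay above wildtype, the second of them by 0.08, and DeltaKlf6 3 lay within it. The difference was 0.38 (SE 0.27, interval -0.24 to 0.99), with means of 8.62 ± 0.41 in DeltaKlf6 and 8.25 ± 0.22 in wildtype (SD, n = 3 each, limma adjusted p = 0.992). On every array Tnfrsf1a was 4.72 to 5.71 above the median of all probe sets, and between percentiles 86.2 and 92.0 of the 17097 genes. The difference was 0.16 without DeltaKlf6 1 and 0.57 without DeltaKlf6 3.

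Tnfrsf1b encodes TNF receptor 2, found mostly on immune and endothelial cells. It was at 7.75, 6.57 and 7.69 in DeltaKlf6, against 7.42, 7.34 and 7.10 in wildtype. DeltaKlf6 1 and 3 lay above every wildtype liver and DeltaKlf6 2 below all of them, so that the group means were close, at 7.34 ± 0.66 in DeltaKlf6 and 7.29 ± 0.17 in wildtype (SD, n = 3 each). The difference of 0.05 (SE 0.34) had an interval of -0.73 to 0.83, which holds changes of either sign (limma adjusted p = 0.997). Its other probe set, 1448951_PM_at, which lay below the array median on every array, gave 2.88, 2.71 and 3.28 in DeltaKlf6 and 3.09, 3.13 and 3.12 in wildtype. Its difference was -0.16 (SE 0.22), so the 2 probe sets had opposite signs. On the probe set used the difference was -0.16 without DeltaKlf6 1 and 0.43 without DeltaKlf6 2.

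Il1r1 encodes the signalling receptor of both IL-1 cytokines. It was at 10.17 in the library labelled DeltaKlf6 1, and at 7.24 and 7.73 in DeltaKlf6 2 and 3, against 8.30, 7.70 and 8.29 in wildtype. DeltaKlf6 1 exceeded the highest wildtype liver by 1.87, DeltaKlf6 2 lay below the lowest by 0.46, and DeltaKlf6 3 lay within the wildtype range. This was the widest spread among the 10 genes, 8.38 ± 1.57 in DeltaKlf6 against 8.10 ± 0.35 in wildtype (SD, n = 3 each). The difference was 0.28 (SE 0.68, interval -1.30 to 1.86, limma adjusted p = 0.995). Without DeltaKlf6 1 it was -0.61 (limma unadjusted p = 0.0811, adjusted p = 0.984), so 1 library set its sign. Klf6 was high in that same library on all 3 of its probe sets. Il1rap, the co-receptor gene, was at 9.29, 9.17 and 8.12 in DeltaKlf6 and 8.43, 9.30 and 8.80 in wildtype and did not share the pattern. The decoy receptor gene Il1r2 was at 5.42, 3.91 and 4.24 in DeltaKlf6 and 4.43, 4.46 and 5.04 in wildtype, with DeltaKlf6 1 highest there too.

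**Figure D3:**
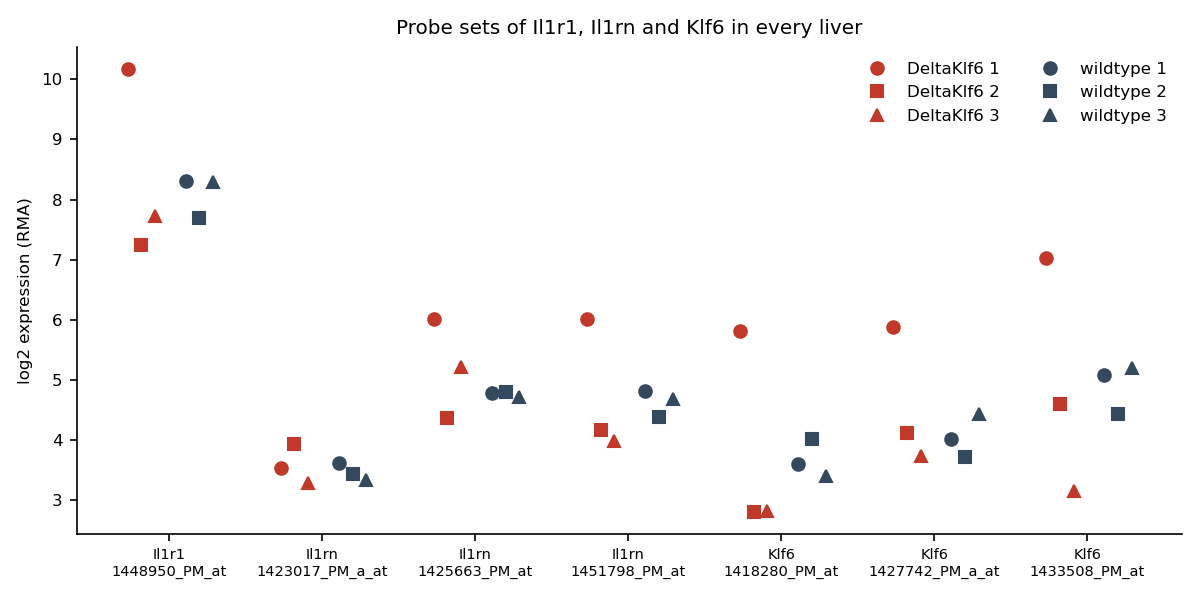
Log2 expression (RMA) of every probe set of Il1r1, Il1rn and Klf6 in the 3 DeltaKlf6 livers (left, red) and the 3 wildtype livers (right, dark). The library labelled DeltaKlf6 1 is highest on 6 of the 7 probe sets, at 10.17 for Il1r1 and 7.03 for the brightest Klf6 probe set, and on Il1rn 1423017_PM_a_at it lies within the wildtype range.

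Among the adhesion genes, Vcam1, whose product binds the integrin VLA-4 on monocytes and lymphocytes, was at 5.93, 4.24 and 5.66 in DeltaKlf6, against 4.31, 4.37 and 4.25 in wildtype. The libraries labelled DeltaKlf6 1 and 3 stood 1.57 and 1.30 above the highest wildtype liver, whereas DeltaKlf6 2 lay 0.002 below the lowest. The means were 5.28 ± 0.91 in DeltaKlf6 and 4.31 ± 0.06 in wildtype (SD, n = 3 each). The difference of 0.97 (SE 0.42, interval 0.009 to 1.94) had a limma unadjusted p of 0.0483 and an adjusted p of 0.992, and an exact permutation p of 0.4. Without DeltaKlf6 2 it was 1.49 (limma unadjusted p = 0.000333, adjusted p = 0.529), without DeltaKlf6 1 it was 0.65 (unadjusted p = 0.155 by limma), and without DeltaKlf6 3 it was 0.78 (unadjusted p = 0.129 by limma). Under 10 of 16 alternatives its unadjusted p was not under 0.05. Vcam1 was read from a single probe set, of the type shared between transcripts, 0.91 to 2.59 above the array median. Of the 12 endothelial markers 4 were higher and 8 lower by mean, with 0 past the threshold, at a mean level of 5.91 to 6.14 in DeltaKlf6 and 5.99 to 6.29 in wildtype. None of them lay below the array median on all arrays. Of the 8 stellate cell markers 4 were higher and 4 lower, at 5.17 to 6.12 in DeltaKlf6 and 5.45 to 5.88 in wildtype, and 2 lay below the array median throughout. The part of these markers in the Vcam1 values was not tested.

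Icam1, whose product binds the β2 integrins of neutrophils and other leukocytes, did not share the Vcam1 values. It was at 5.95, 6.44 and 6.17 in DeltaKlf6, against 6.33, 6.12 and 6.40 in wildtype. DeltaKlf6 1 lay below the wildtype range, DeltaKlf6 2 just above it and DeltaKlf6 3 within it. The means were 6.19 ± 0.25 in DeltaKlf6 and 6.28 ± 0.15 in wildtype (SD, n = 3 each), with a difference of -0.10 (SE 0.22, interval -0.61 to 0.42, limma adjusted p = 0.995). This interval is the narrowest of the 10 and leaves out a log2 change of 1 in either direction. The sign turned to 0.02 without DeltaKlf6 1 and to 0.01 when the arrays were quantile-normalized again. Of 11 measured monocyte and neutrophil markers 4 were higher and 7 lower, with 0 past the threshold, at a mean of 3.87 to 4.27 in DeltaKlf6 and 4.04 to 4.34 in wildtype, and 3 lay below the array median on all arrays. Of 10 measured lymphocyte markers 5 were higher and 5 lower, at 3.09 to 3.26 in DeltaKlf6 and 3.21 to 3.33 in wildtype, with 4 below the array median throughout.

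All 10 genes lay above the array median, taken over all probe sets, on all 6 arrays, and 8 of them also lay above the highest nonspecific control on all arrays. The exceptions were Tnf, on 4 of 6 arrays, and Il1b, on 5 of 6. All 10 exceeded the second highest of the 23 controls, which was at 2.79 to 3.01. The receptor genes lay 3.27 to 4.40 (Tnfrsf1b) and 3.94 to 6.82 (Il1r1) above the array median. The margin was 1.33 to 2.42 for Il1a, 0.97 to 1.82 for Il1b, 1.07 to 2.67 for Il1rn and 2.60 to 3.14 for Icam1. Among the 17097 genes, each at its probe set of highest mean, the levels stood lower, with a lowest percentile over the arrays of 38.5 for Tnf, 48.1 for Il1b, 48.8 for Il1rn and 47.9 for Vcam1.

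The spread among the DeltaKlf6 livers was wide. For 10 of 10 the SD was larger in DeltaKlf6 than in wildtype, as it was for 68.1% of all genes. The median SD of the 10 was 0.54 in DeltaKlf6 and 0.18 in wildtype, and that of all genes was 0.35 in DeltaKlf6 and 0.24 in wildtype. The median ratio of the SDs was 2.86 for the 10 and 1.51 for all genes. The 10 genes share the same 6 arrays and are not independent, and no test was made of this count. Their median log2 difference was 0.31, against -0.01 over all genes, with 7 above 0 and 3 below it. Without the library labelled DeltaKlf6 1 these counts were 6 and 4, and after a second quantile normalization 8 and 2.

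The 3 DeltaKlf6 livers left the wildtype range in different ways. In the library labelled DeltaKlf6 1, 7 of the 10 genes lay above every wildtype liver (29% of all genes did) and 3 lay below (30.9%). The 3 were Tnf, Il1b and Icam1, and the median deviation of the 10 from the wildtype mean was 0.74. In DeltaKlf6 2, 4 lay above (28% of all genes) and 6 below (27.6%), with a median of -0.23. Those above were Tnfrsf1a, Il1a, Il18 and Icam1, of which Tnfrsf1a and Icam1 cleared the wildtype range by 0.08 and 0.04. In DeltaKlf6 3, 5 lay above (27.2% of all genes), 1 below (35.1%) and 4 within the wildtype range, with a median of 0.16. That library was the 1 in which Tnf was above wildtype, by 0.14. Over all genes the median deviation was -0.02, -0.01 and -0.06 in DeltaKlf6 1, 2 and 3. Il18 was the single gene above wildtype in all 3, and on the probe sets used Vcam1, Il1rn and Tnfrsf1b were above it in DeltaKlf6 1 and 3 and below it in DeltaKlf6 2. Other probe sets of Il1rn and Tnfrsf1b did not give this order. Il1rn 1451798_PM_at put DeltaKlf6 3 below every wildtype liver, and Tnfrsf1b 1448951_PM_at did so for DeltaKlf6 1.

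**Figure D4:**
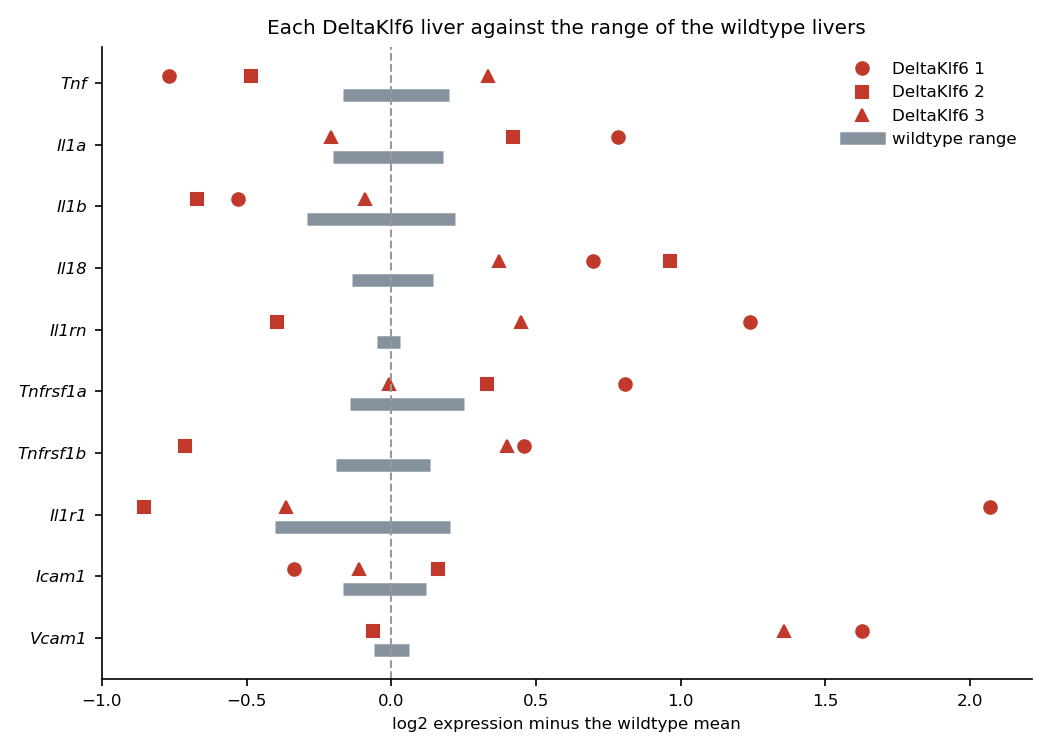
Deviation of each DeltaKlf6 liver from the wildtype mean on the log2 scale (red symbols), drawn above the range of the 3 wildtype livers (grey bars) for each gene. Il18 lies to the right of its bar in all 3 libraries, whereas, on the probe sets used, Vcam1, Il1rn and Tnfrsf1b lie to the right in DeltaKlf6 1 and 3 and to the left in DeltaKlf6 2, for Vcam1 by 0.002.

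The genes most like each member across the arrays were looked up among the listed pathway genes and cell markers, as a description. Likeness was measured as the root mean square, over the 6 arrays, of the difference between 2 genes' deviations from their own means, among 129 listed genes and for the members whose SD over the arrays was at least 0.4. The genes were picked for this likeness, so what they share with a member follows from the choice. Nearest to Il1rn was the neutrophil chemokine gene Cxcl2 (0.16), which was also nearest to Vcam1 (0.24). For Il1rn this likeness is that of the probe set used. Both other Il1rn probe sets put DeltaKlf6 3 below every wildtype liver. Cxcl2 was at 4.16, 2.73 and 3.78 in DeltaKlf6, against 2.87, 3.06 and 3.03 in wildtype. It was above wildtype in DeltaKlf6 1 and 3 and below it in DeltaKlf6 2. Its values in wildtype and in DeltaKlf6 2 lay below the array median. The next were the ubiquitin ligase gene Traf6 for Il1rn (0.27) and the scavenger receptor gene Marco for Vcam1 (0.48). Nearest to Il1r1 were the lymphatic and sinusoidal endothelial gene Lyve1 (0.36) and Irak3 (0.37), a kinase-like inhibitor of IL-1 signalling. Both were highest in DeltaKlf6 1. Lyve1 was at 8.34, 6.51 and 6.15 in DeltaKlf6, against 6.35 to 7.16 in wildtype, and Irak3 was at 5.40, 3.01 and 3.33 in DeltaKlf6, against 3.26 to 3.81 in wildtype. For Tnf the nearest were Birc3 (0.18), an inhibitor of apoptosis induced by NF-kB, and Myd88 (0.21), the adaptor of the IL-1 receptor. Those for Il18 were Mpeg1 (0.18) and the antithrombin gene Serpinc1 (0.18), and those for Tnfrsf1b were Madcam1 (0.22) and Eng (0.25). Madcam1 lay below the array median on all arrays.

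The rest of the TNF and IL-1 pathway gave no gene past the threshold. Of 35 further signalling genes 31 were measured, 19 higher and 12 lower by mean, with a median difference of 0.06, and 0 had non-overlapping groups. The smallest unadjusted p values belonged to Ltb, encoding lymphotoxin beta (-0.35, SE 0.24), Traf6 (0.53, SE 0.43), the death domain adaptor gene Fadd (-0.40, SE 0.30) and Birc2, an inhibitor of apoptosis (-0.25, SE 0.22). Of these 4, Traf6 shared with Il1r1 and Il1rn its highest value in the library labelled DeltaKlf6 1, at 6.23 there and at 4.55 to 4.72 on the other 5 arrays. On probe sets not used the difference was 0.84 and 0.09 for Traf6 and -0.007 for Fadd.

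Of 20 other adhesion genes 19 were measured, 11 higher and 8 lower, with a median of 0.06. Groups did not overlap for 2 on the lower side, beside 5.91% of all genes, and for 0 on the higher side, beside 3.41%. The 2 were Cd34, a sialomucin of vascular endothelium, at 2.89, 2.38 and 2.39 in DeltaKlf6 against 3.18, 3.28 and 3.28 in wildtype (-0.69, SE 0.22), and Icam4 (-0.38, SE 0.20). Cd34 lay below the array median on all arrays. Selp, encoding P-selectin, differed by 0.73 (SE 0.38) on 1 probe set and by -0.14 on the other, and the hyaluronan receptor gene Cd44 by 0.41 (SE 0.30), with -0.18 to 0.06 on its other 3.

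The textbook outputs of NF-kB and interleukin-6 signalling were divided, 8 of 16 higher and 8 lower with a median of 0.09, and groups did not overlap for any. The chemokine genes Cxcl1 (0.74, SE 0.52), Cxcl2 (0.57, SE 0.36) and Cxcl10 (0.59, SE 0.40) were higher by mean. The macrophage growth factor gene Csf1 was at -0.51 (SE 0.33), with 0.00 to 0.37 on its other probe sets. Il6, encoding the cytokine downstream of TNF in priming, was at 2.47, 2.95 and 3.03 in DeltaKlf6 against 2.80, 2.82 and 2.97 in wildtype, below the array median on all arrays. Tnfaip3, the feedback inhibitor of NF-kB that TNF induces, was at 5.90, 5.34 and 4.90 in DeltaKlf6 against 5.60, 5.69 and 5.68 in wildtype (-0.28, SE 0.28). None of these passed (limma adjusted p of at least 0.992).

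In the marker lists, too, 0 genes passed. Groups that did not overlap, where named here, stand beside 3.41% of all genes on the higher side and 5.91% on the lower. The smallest p values after Cd163 and Mpeg1 among macrophage markers were those of C1qb, a complement component (0.72, SE 0.35), and Marco (0.44, SE 0.31). Among monocyte and neutrophil markers Ccr2, the monocyte chemokine receptor, was at -0.84 (SE 0.25) but at 0.03 to 0.17 on its 3 other probe sets, with S100a8 at -0.39, Camp at -0.36 and Mpo at -0.30. Groups did not overlap for Ccr2 and Camp. Endothelial markers included Kdr, the VEGF receptor, at -0.87 (SE 0.30) with non-overlapping groups, Stab2 at -0.61, Tek at -0.49 and Flt4 at 0.43. Stellate cell markers were Des at 0.41, Pdgfrb at 0.26, Col3a1 at 0.25 and Dcn at -0.25. A second probe set gave 0.43 for Des and -0.014 for Col3a1. Lymphocyte markers were Cd3g at -0.46, with groups that did not overlap, Nkg7 at -0.30, Cd79a at -0.26 and Klrb1c at -0.14. Cd3g lay below the array median on every array but wildtype 2. Hepatocyte markers were Tat at 0.64, also with groups apart, Ass1 at 0.62 (0.78 on its other probe set), Serpinc1 at 0.53 and Alb at 0.15.

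**Figure D5:**
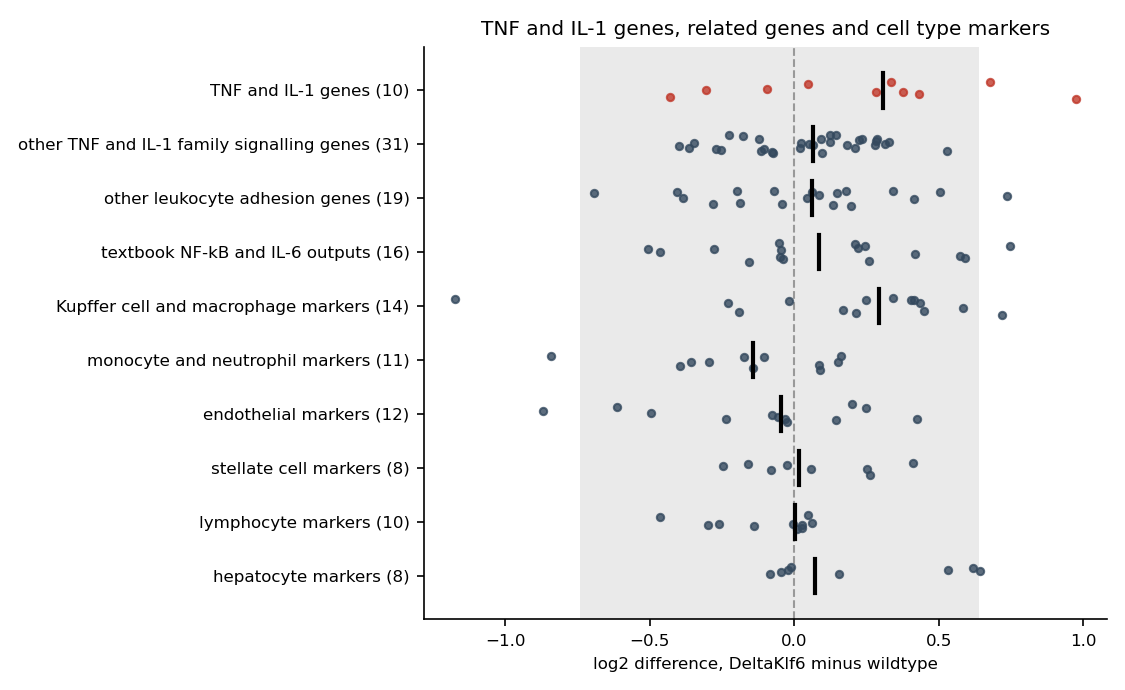
Log2 differences, DeltaKlf6 minus wildtype, of the 10 TNF and IL-1 genes (red) and of 9 lists of related genes and cell type markers (dark), 1 point per gene with the number of genes in parentheses. Black bars are list medians, 0.31 for the 10 genes and 0.29 for macrophage markers, and the grey band, -0.74 to 0.64, holds the central 95% of all genes. Il18 and Vcam1 lie above this band.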

How the data were processed

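Total RNA of 3 DeltaKlf6 and 3 wildtype livers was labelled with a 3′ IVT kit, per the labels' protocols, and hybridized to one-channel Affymetrix arrays. Per the submitters' processing notes, the deposited log2 values were made by the authors with RMA, run in Affymetrix Expression Console 1.2.1. Their base was inferred from the range of the values, 1.49 to 13.9. RMA compresses low values, so differences of dim genes may be understated. The deposited arrays still differed in their quartiles. Without counts precision is limited by the number of arrays. The genome build is not given in the sources used here, and promoter coordinates are those of RefSeq on GRCm38.p6.

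Of 45141 probe sets, 104 of them controls, 28898 had 1 gene symbol in the platform annotation, 551 had several, and 15692 were unnamed. RefSeq changed 0 of the symbols and lacked 160 genes. For each of 17097 genes the brightest probe set on average was used. Groups were compared in R 4.3.3 by the lmFit and eBayes functions of limma 3.58.1 (with statmod 1.5.0), two-sided, with genotype as the factor and Benjamini-Hochberg adjustment over all genes at 0.05. Standard errors and 95% intervals come from that model. Single values were also tested by an exact permutation test over the 6 arrays. The calculation was checked on simulated data. These had the same spread in both groups, unlike the arrays here, and the recovery of small differences is not given.

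Members and lists were chosen with earlier results of these data known. The text names all members, Klf6, the 4 genes of smallest unadjusted p in each list, and the 2 listed genes most like each member whose SD was at least 0.4. Casp1, Il18r1, Il18rap, Il18bp, Il1rap, Il1r2, Il6 and Tnfaip3 were named beyond that rule, after their values were seen. The closing section gives the alternatives that were tried, among them other probe set choices, normalizations and variance models, weights for arrays, a block for replicate numbers and each array left out.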

Additional observations from a re-analysis of the deposited data

Results flagged for a closer look

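Array summaries and probe sets that the comparison did not use are given here where a DeltaKlf6 library exceeded the highest wildtype array by more than the whole wildtype range. That held for 15 values. In the library labelled DeltaKlf6 3 the hybridization controls were at 11.42, against at most 10.57 in wildtype, and the Gapdh 3′ minus 5′ signal was 4.83, against at most 4.43. The same library had an array median of 3.45, against at most 3.39 in wildtype, a nonspecific control median of 2.504, against at most 2.38, and a second highest nonspecific control of 3.01, against at most 2.88. The highest nonspecific control was at 4.44, 4.17 and 4.23 in DeltaKlf6 1, 2 and 3, against at most 3.89 in wildtype. The upper quartile was 5.53 and 5.63 in DeltaKlf6 1 and 2, against at most 5.51 in wildtype.

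Klf6 probe sets 1418280_PM_at and 1427742_PM_a_at were at 5.81 and 5.88 in the library labelled DeltaKlf6 1, against at most 4.03 and 4.44 in wildtype. Il1rn probe set 1451798_PM_at was at 6.01 in that library, against at most 4.82 in wildtype, and the probe set used for Il1rn was above wildtype there too. Il1rn probe set 1423017_PM_a_at was at 3.93 in DeltaKlf6 2, against at most 3.63 in wildtype, although the probe set used for Il1rn was lowest in that library. The second Tnfrsf1b probe set, 1448951_PM_at, was at 3.28 in DeltaKlf6 3, against at most 3.13 in wildtype, and the probe set used for Tnfrsf1b was above wildtype there too.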

How the results depend on the processing

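Under 17 alternatives 0 of 17097 genes, or of the genes each alternative kept, and 0 of the 10 TNF and IL-1 genes passed an adjusted p of 0.05. Of 171 member differences 162 kept their sign, but many of the 171 could not change it. Other variance models, the replicate block, the removal of dim genes and the used probe sets tested alone leave a difference as it was. The reversed signs were in 3 genes. Tnfrsf1b turned to -0.055 with the mean of its probe sets, to -0.056 with array weights and to -0.16 on its second probe set alone, and ranged from -0.16 to 0.43 with arrays left out in turn. Icam1 was 0.014 after a second quantile normalization and ranged from -0.22 to 0.025 with arrays left out, and Il1r1 ranged from -0.61 to 0.85. The causes were not tested. The lowest member adjusted p was 0.428, for Il18 without DeltaKlf6 3. Without probe sets shared between transcripts Il1b and Vcam1 had none left, and the other 8 genes were tested.

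The number of genes at an unadjusted p under 0.05 was 631 with all arrays. It was 1546 without DeltaKlf6 3, 1165 without DeltaKlf6 2, 388 without wildtype 1, 379 without wildtype 3 and 1066 over every probe set. Members at that level numbered 2 with all arrays, 4 without DeltaKlf6 3 and 0 without wildtype 3. At that level Il18 was lost under 2 of 17 alternatives it was tested in, without DeltaKlf6 2 and without wildtype 3, and Vcam1 under 10 of 16. Array weights were 0.378 for DeltaKlf6 3 and 0.864 to 1.67 for the others. Correlations of same-numbered deviations were -0.0049, 0.26 and 0.08, and DeltaKlf6 2 alone correlated best with the wildtype liver of its own number. With 3 livers a group, whether replicate numbers pair the livers cannot be decided. The replicate block gave 0 genes and 0 members past the threshold and 703 genes at an unadjusted p under 0.05.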
